A study of Rattus norvegicus with 24 samples.

Results

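Genes of GABA synthesis, transport and breakdown and of the GABA-B receptor were described on 24 expression arrays labelled as rat midbrain. Members were the probe sets whose only gene symbol in the array's annotation was Gad1, Gad2, Slc32a1, Slc6a11, Abat, Gabbr1 or Gabbr2. They numbered 15 of the 31099 probe sets on the array. Gabbr1 had 5 probe sets, Abat 3, and Gad1 and Gabbr2 each 2, and the other members had 1. All 15 were among the 27035 probe sets that reached the 20th percentile of their array on at least 3 arrays.

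The arrays came from adult female Long-Evans rats and formed 4 sets by title, each with 3 paced mated and 3 chamber-exposed arrays by their labels. In paced mating the female can leave the male through a divided chamber, and chamber-exposed controls met the chamber alone. One set held rats without ovaries or adrenals (OVX/ADX), primed with estradiol benzoate. Another held rats without ovaries (OVX), primed the same way. Intact rats in proestrus made up the other sets, one titled by number only (number-named) and one titled Intact with a number (Intact-named). The study's methods describe fewer intact rats sent for arrays than there are intact arrays here, and it is not stated whether both intact sets came from the same rats. The methods also tell of an OVX/ADX rat that died during surgery. OVX/ADX arrays 2541 and 2530 bear numbers of the series of number-named arrays, and whether they hold OVX/ADX rats is not settled. All p-values treat the arrays as separate rats, which is not known for the fits over both intact sets or over the 24 arrays, and few arrays per group limit the precision.

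GABA is the main inhibitory transmitter of the brain. Gad1 and Gad2 encode the glutamate decarboxylases that make it, and Slc32a1 encodes the carrier that loads it into synaptic vesicles. Slc6a11 encodes GAT-3, a plasma membrane transporter that takes GABA up, largely into astrocytes, and Abat encodes GABA transaminase, which breaks it down in mitochondria. Gabbr1 and Gabbr2 encode the subunits of the GABA-B receptor, a G protein-coupled receptor that works as a pair, in which Gabbr1 binds GABA and Gabbr2 couples to the G protein. In the midbrain, GABA neurons of the ventral tegmental area and substantia nigra restrain dopamine neurons, and lordosis is among the behaviors that midbrain GABA is known to affect.

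The arrays differed by set in ways that touch every comparison. The lowest signals per array were 3.38 to 3.43 for OVX/ADX, 2.31 to 2.39 for OVX, 3.58 to 3.65 for number-named and 2.296 to 2.39 for Intact-named arrays, so OVX and Intact-named arrays appear to share a normalization run and the other sets appear to have runs of their own. Th, tyrosine hydroxylase of dopamine neurons, was at a median percentile of 92.3 within the array on OVX/ADX and 94.6 on number-named arrays, but at 36.9 on OVX and 33.5 on Intact-named arrays. Slc6a3, the dopamine transporter, was at 88.6 on OVX/ADX and 93.2 on number-named arrays, against 29.1 on OVX and 27.1 on Intact-named arrays. Pmch, the hypothalamic melanin-concentrating hormone gene, was at 99.9 on both OVX/ADX and number-named arrays, against 42.5 on OVX and 40.1 on Intact-named arrays. Slc17a7, the vesicular glutamate transporter of cortical neurons, ran the other way, at 55.1 and 52.6 against 97.6 and 97.9 in the same order. The tissue is labelled midbrain throughout. Of the 8 dopamine neuron genes listed, 7 had lower percentiles on OVX and Intact-named than on OVX/ADX and number-named arrays. Among them Aldh1a1 stayed high throughout, at 89.7 on OVX/ADX, 86.98 on OVX, 95.6 on number-named and 82.6 on Intact-named arrays. Nr4a2, a transcription factor gene of dopamine neurons, ran the other way, at 66.8 and 68.4 on OVX/ADX and number-named arrays against 84.1 and 89.9 on OVX and Intact-named arrays. Anterior pituitary markers (median of 9 genes after quantile normalization) were 6.36, 6.74 and 8.79 on the number-named arrays with a paced mated label and 10.02, 10.41 and 10.47 on those with a chamber-exposed label. On OVX/ADX arrays they were 10.49 on array 2541, labelled paced mated, and 6.14 to 6.35 on the other 5. On number-named arrays the direction is opposite to the one the study gives for pituitary hormones, so mating groups are called by their labels. In bulk tissue, fewer cells of a type and less RNA per cell cannot be told apart.

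Gad1 stood near the top of every array. Its leading probe set, that of highest mean over the 24 arrays (1368344_at), ranged from 11.33 to 11.67 on the log2 scale on OVX/ADX arrays, from 12.23 to 12.61 on OVX arrays, from 11.95 to 12.18 on number-named arrays and from 12.21 to 12.52 on Intact-named arrays. Within the array these signals lay between the 97.7th and the 99.0th percentile. The other Gad1 probe set (1370760_a_at) had median percentiles of 78.2 on OVX/ADX, 18.5 on OVX, 73.4 on number-named and 17.8 on Intact-named arrays. OVX/ADX and number-named arrays did not overlap in percentile with OVX and Intact-named arrays on this probe set. The gene lies at chr3:75777260-75818099 (GRCr8).

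Gad2, the decarboxylase of nerve terminals, was lower in rank than the leading Gad1 probe set on each array. Its signal had a lowest, median and highest value of 8.70, 8.81 and 8.98 on OVX/ADX, 6.18, 6.34 and 6.65 on OVX, 9.22, 9.37 and 9.85 on number-named and 6.26, 6.55 and 7.15 on Intact-named arrays. Its median percentile was 78.7 on OVX/ADX and 80.1 on number-named arrays, and 38.6 on OVX and 42.3 on Intact-named arrays. As on the second Gad1 probe set, OVX/ADX and number-named arrays were above OVX and Intact-named arrays without overlap.

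Slc32a1, the vesicular carrier, was at a similar rank in all sets, with median percentiles of 85.4 on OVX/ADX, 83.4 on OVX, 87.7 on number-named and 83.3 on Intact-named arrays. Slc6a11 was not. Its median percentile was 64.9 on OVX/ADX and 68.8 on number-named arrays against 18.8 on OVX and 16.4 on Intact-named arrays, with no overlap between these pairs of sets. The leading Abat probe set (1369799_at) was at 76.5 and 75.2 against 68.1 and 67 in the same order. The panels of signal by array show the 7 genes.

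**Figure D1:**
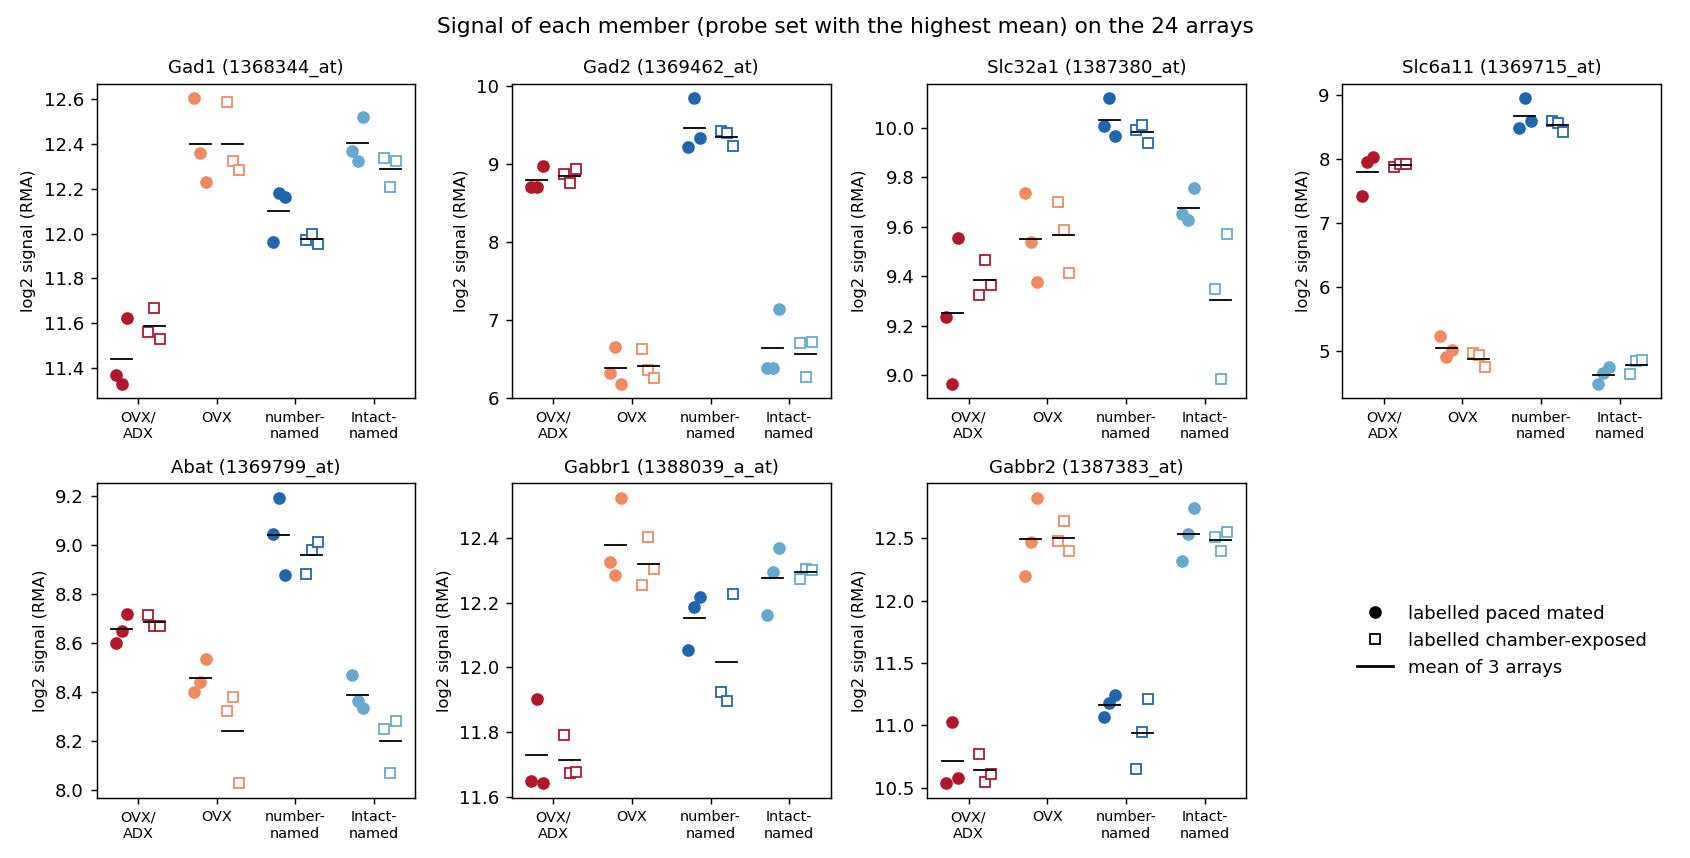
Log2 signal of the probe set with the highest mean for each of the 7 genes on the 24 arrays, by title set (x axis), with paced mated labels as filled circles left of chamber-exposed labels as open squares and black lines at the mean of 3 arrays. As deposited, Gad2 and Slc6a11 were at most 7.15 on OVX and Intact-named arrays and at least 7.42 on the others. These groups of sets appear to come from separate runs, so their signals are not on the same scale, and percentiles are given in the text. Paced mated and chamber-exposed arrays of a set mostly overlap.

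Both receptor subunits had a probe set among the highest signals of each array. The leading Gabbr1 probe set (1388039_a_at) ranged from 11.64 to 11.90 on OVX/ADX, from 12.26 to 12.52 on OVX, from 11.90 to 12.23 on number-named and from 12.16 to 12.37 on Intact-named arrays, all at or above the 98.1th percentile. The leading Gabbr2 probe set (1387383_at) was at a median percentile of 94.9 on OVX/ADX, 98.8 on OVX, 95.4 on number-named and 98.9 on Intact-named arrays. The second Gabbr2 probe set (1368952_at) ran the other way, with median percentiles of 58.0, 37.0, 56.4 and 35.1 in that order of sets.

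To compare sets of separate runs, the 24 arrays were quantile normalized together and tested with limma, with p-values adjusted over the 27035 probe sets. Run, set and tissue content cannot be told apart in these comparisons. Between number-named and Intact-named arrays, both of intact rats, 13 of the 15 member probe sets had an adjusted p under 0.05, 8 higher and 5 lower, against 80.6% of all probe sets. The counts were 11 of 15 for OVX/ADX against OVX (8 higher, 3 lower), with 79.7% of all probe sets called, and 5 of 15 for OVX/ADX against number-named (3 higher, 2 lower), with 66.1% called. The first 2 shares of members were close to those of all probe sets, and that of the third was below it.

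The size of the differences varied more between probe sets than between these comparisons. For number-named minus Intact-named, Slc6a11 differed by 3.58 ± 0.09 (SE), Gad2 by 2.63 ± 0.15, Abat (1369799_at) by 0.62 ± 0.07 and Slc32a1 by 0.54 ± 0.10. The leading Gabbr2 probe set differed by -1.39 ± 0.09, the leading Gad1 probe set by -0.18 ± 0.05 and the leading Gabbr1 probe set by -0.07 ± 0.06, the last with an interval of -0.20 to 0.06 (limma, adjusted p from 4.9e-12 to 0.0045, and 0.30 for Gabbr1). For OVX/ADX minus OVX, the same probe sets gave 3.03 ± 0.11 for Slc6a11, 2.71 ± 0.09 for Gad2, 0.63 ± 0.07 for Abat, 0.17 ± 0.09 for Slc32a1, -1.30 ± 0.11 for Gabbr2, -0.37 ± 0.08 for Gad1 and -0.12 ± 0.06 for Gabbr1, where Slc32a1 and Gabbr1 did not pass (limma, adjusted p = 0.12 and 0.10) and the others did. Without OVX/ADX array 4123, both passed, at 0.24 for Slc32a1 and -0.16 for Gabbr1 (limma, adjusted p = 0.018 and 0.025). Slc6a11 was below the 20th percentile on 6 of 6 Intact-named and 5 of 6 OVX arrays, so its difference is better read as a lower limit. With those arrays set at the 20th percentile it was at least 3.33 and 2.94 for these comparisons, which share no arrays. The Slc32a1 value turned negative with signals as deposited (-0.24) and with array medians subtracted (-0.11).

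Between the sets whose Th and Slc6a3 ranks were both high, Gad2, Slc6a11 and the leading Gabbr2 probe set differed less than in the comparisons above, while the low Abat probe sets differed more than in OVX/ADX minus OVX. For OVX/ADX minus number-named, Slc6a11 fell by 0.36 ± 0.12 and Slc32a1 fell by 0.25 ± 0.08 (limma, adjusted p = 0.016 each). Gabbr1 (1369372_at), a probe set of low signal, rose by 0.52 ± 0.05, and the low Abat probe sets (1375321_at and 1391365_at) rose by 0.79 ± 0.07 and 0.80 ± 0.04. Gad1, Gad2 and Gabbr2 had no probe set past the threshold here. With signals as deposited, 13 of the 15 passed it, and without array 2541, where the pituitary markers were high, 8 passed. Over all probe sets, 22851 and 17965 passed in these fits, against 17869 of 27035 in the main fit. The part of the pituitary markers in the count of 8 was not tested. Without arrays 2541 and 2530, 6 members passed and Slc32a1 was at -0.24 (limma, adjusted p = 0.051). Leaving out both arrays kept the OVX/ADX minus OVX count at 11 of 15 and the mating count in OVX/ADX rats at 0.

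Probe sets of the same gene disagreed in some of the comparisons across runs. For number-named minus Intact-named, the Gad1 probe sets gave -0.18 (1368344_at) and 3.78 (1370760_a_at), and the Gabbr2 probe sets gave -1.39 (1387383_at) and 1.41 (1368952_at). Gabbr1 probe sets ran from -0.69 (1375720_at) to 2.10 (1369371_a_at), and those of Abat from -0.87 (1375321_at) to 0.62 (1369799_at). All 4 members with several probe sets had calls in both directions, as did 32.8% of the 4070 genes with several kept probe sets. This share was not matched for the number of probe sets per gene. The second Gad1 probe set was below the 20th percentile on 5 of 6 Intact-named arrays, and with those arrays set at it the difference was at least 3.58. The span between probe sets was 3.96 for Gad1 on the measured signals, 2.79 for both Gabbr1 and Gabbr2 and 1.49 for Abat, against a median of 0.90. For OVX/ADX minus OVX, 3 of the 4 members had calls in both directions, against 34.9% of the 4070 genes. For OVX/ADX minus number-named, no member had, against 23% of the 4070 genes. The spans there were 0.38 for Gad1, 0.50 for Gabbr1, 0.15 for Gabbr2 and 0.70 for Abat, against a median of 0.38.

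**Figure D2:**
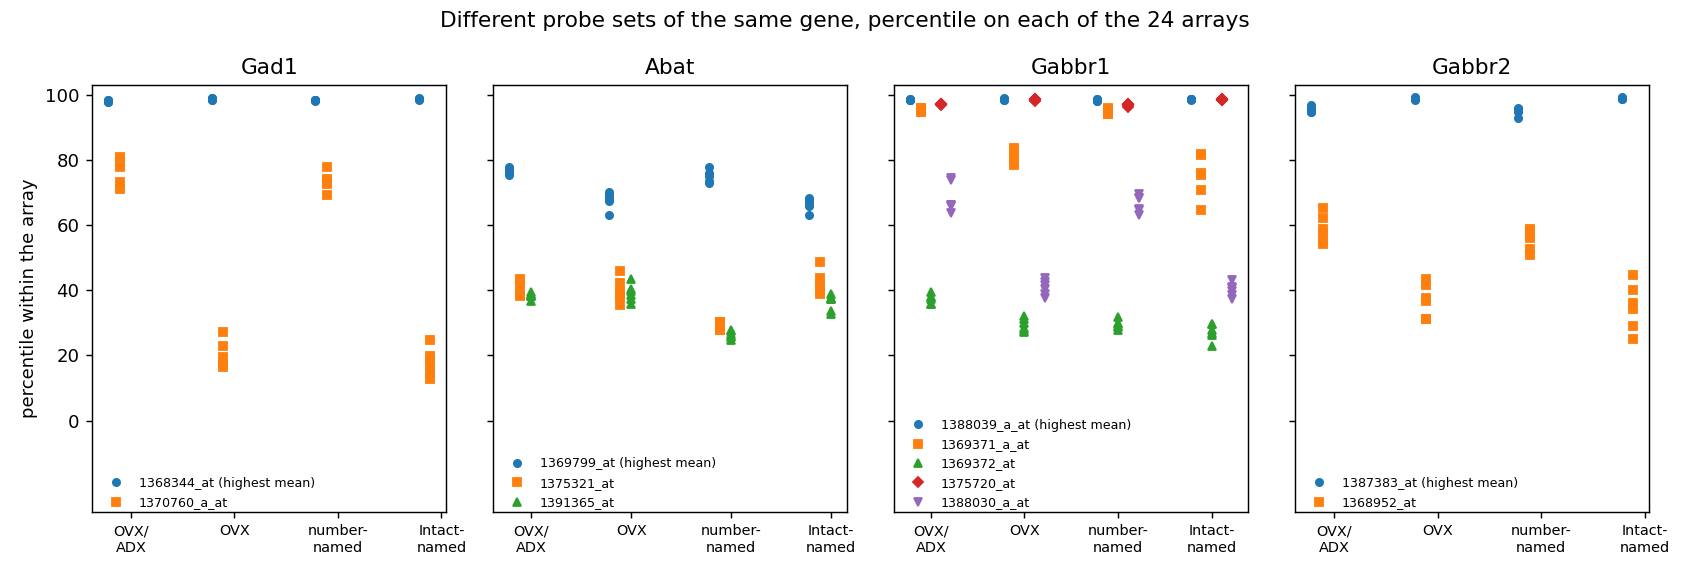
Percentile of each probe set within its array (y axis) for the 4 genes with several probe sets, by title set (x axis), 6 arrays per set and 1 symbol per probe set. The second Gad1 probe set lies between 69.1 and 80.8 on OVX/ADX and number-named arrays and at most 27.2 on OVX and Intact-named arrays, while the leading one stays at or above 97.7.

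Control probe sets for the 3′ and 5′ ends of the same transcript moved with these differences. The 3′ minus 5′ difference for beta-actin was 0.97 to 1.11 on OVX/ADX arrays, 1.499 to 2.26 on OVX arrays, 1.01 to 1.13 on number-named arrays and 1.84 to 3.40 on Intact-named arrays. Within the Intact-named set it was highest on Intact-1 (3.40), where Gad1 (1370760_a_at), Gabbr1 (1369371_a_at) and Gabbr2 (1368952_at) had their lowest signals of the set, 4.33, 8.22 and 5.32. It was lowest on Intact-5 (1.84), where the same 3 probe sets had their highest signals, 5.36, 9.46 and 6.68. Intact-6 was almost as low (1.85). Intact-1 and Intact-5 are 2 of the 6 arrays of the set and both labelled paced mated. The part of the 3′ minus 5′ difference in the differences between probe sets was not tested.

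From array to array within a set, the leading probe sets of 2 pairs of members moved together. After each set's mean was subtracted, the signals of leading probe sets were compared over the 24 arrays by Pearson's r, as a description. Of the 13080 other genes, the most similar to Gad1 was Slc32a1, with r = 0.76, and the most similar to Gabbr1 was Gabbr2, with r = 0.85. Gad1 was number 4 for Slc32a1, and Gabbr1 was number 18 for Gabbr2. Leaving out any 1 array kept r between 0.72 and 0.80 for Gad1 and Slc32a1 and between 0.82 and 0.90 for Gabbr1 and Gabbr2. Gad2 was less close to Gad1 (r = 0.58, rank 46) and to Slc32a1 (r = 0.53). The leading Gabbr1 probe set had r of -0.13 with Gad1 and -0.31 with Slc32a1.

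Other probe sets of the same genes gave other values. The second Gad1 probe set (1370760_a_at) had r of 0.25 with the leading one, 0.16 with Slc32a1 and 0.59 with Gad2, but 0.725 with Gabbr1 (1369371_a_at) and 0.65 with Gabbr2 (1368952_at). The other 4 Gabbr1 probe sets had r of 0.15 to 0.46 with the leading Gabbr2 probe set, and Gabbr1 (1369371_a_at) had 0.92 with the second Gabbr2 probe set (1368952_at). Gabbr1 (1375720_at) had r of 0.48 with the leading Gad1 probe set and 0.53 with Slc32a1. The pairs are thus described for the leading probe sets only. The 3 probe sets 1370760_a_at, 1369371_a_at and 1368952_at are those that were lowest on Intact-1 and highest on Intact-5, as given above for beta-actin.

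Within single sets of 6 arrays, exact permutation tests were made for 4 pairs, 16 tests in all, with two-sided p. For Gad1 and Slc32a1, Pearson's r was 0.90 on OVX/ADX (Spearman's rho 0.89), 0.94 on OVX (rho 0.94), 0.55 on number-named (rho 0.60) and 0.81 on Intact-named arrays (rho 0.83). The exact permutation p for r was 0.0069, 0.013, 0.26 and 0.069 in that order, and for rho 0.033, 0.017, 0.24 and 0.058. For Gabbr1 and Gabbr2, r was 0.98, 0.76, 0.87 and 0.84 (exact permutation p = 0.0097, 0.088, 0.011 and 0.061) and rho was 0.83, 0.43, 0.89 and 0.66 (exact permutation p = 0.058, 0.42, 0.033 and 0.18). No adjusted p over the 16 was under 0.05, and the lowest was 0.05 for r and 0.18 for rho. Without the 2 arrays farthest from the median of the first gene, r was 0.72, 0.86, 0.75 and 0.23 for Gad1 and Slc32a1. It was 0.24, -0.87, 0.97 and -0.32 for the receptor subunits, lower than with all arrays outside the number-named set. Few arrays then remain, without the largest deviations of the first gene, so a lower r cannot show what a relation rested on. For Gad1 and Gad2, r was 0.47 to 0.84, and for Gad2 and Slc32a1 it was 0.51 to 0.90 (smallest exact permutation p = 0.040, adjusted 0.11). Spearman's rho was 0.54 to 0.71 and 0.49 to 0.77 for these pairs (smallest exact permutation p = 0.10, adjusted 0.27). Without the 2 farthest arrays, r ran from -0.55 to 0.91 for Gad1 and Gad2 and from -0.74 to 0.93 for Gad2 and Slc32a1.

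**Figure D3:**
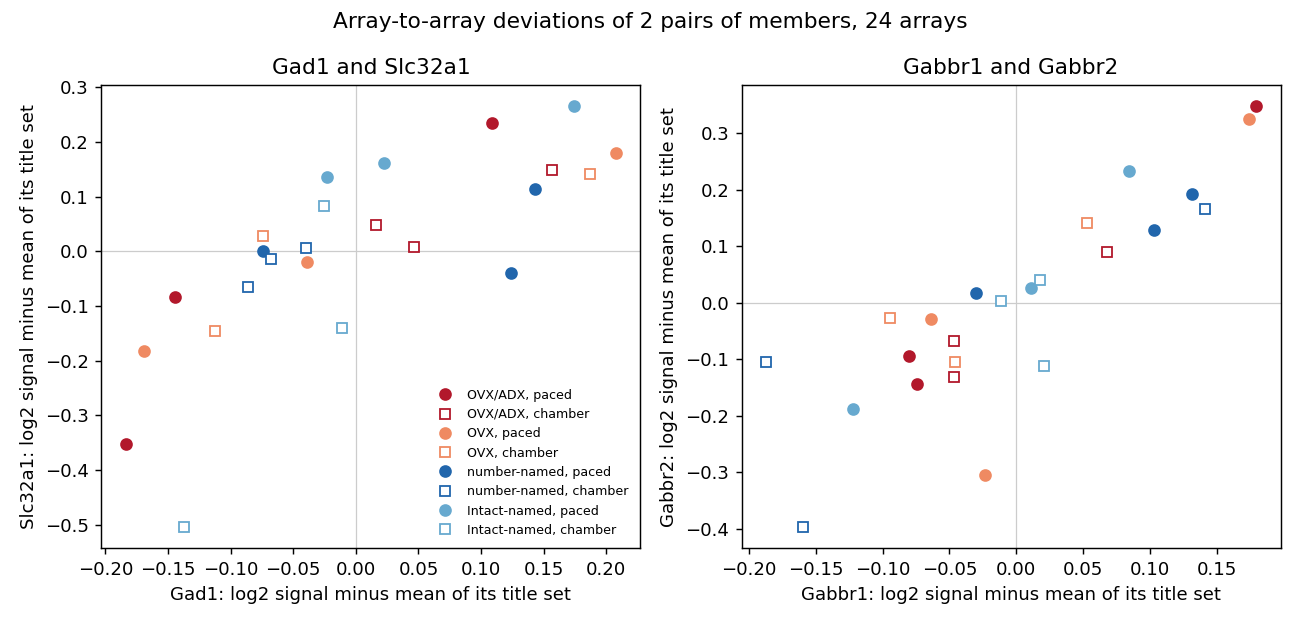
Deviation of each array from the mean of its title set (log2 signal) for Gad1 against Slc32a1 (left) and Gabbr1 against Gabbr2 (right), 24 arrays coloured by set, with paced mated labels as filled circles and chamber-exposed labels as open squares. Over the 24 arrays r is 0.76 for the left pair and 0.85 for the right pair.

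The next most similar genes differed between the pairs. After Slc32a1, the genes closest to Gad1 were Rasgrp2 (r = 0.75), the DNA methyltransferase Dnmt1 (0.75), Usp11 (0.72) and Sirt5 (0.72). Closest to Slc32a1 were Sdhb, a subunit of succinate dehydrogenase (0.78), Ppp2r3b (0.76) and Ethe1 (0.76). Gabbr1 was followed by the postsynaptic scaffold gene Shank3 (0.84), the tyrosine kinase gene Src (0.83), the calcium pump gene Atp2a2 (0.82) and Btbd3 (0.82), and Shank3 was also second for Gabbr2 (0.91), after Ramp3 (0.92), a receptor-modifying protein gene held in the list of thalamic markers. Gabrd, the delta subunit of the GABA-A receptor, was number 4 for Gabbr2 (0.90). Gad2 was closest to Aktip (0.77), Gabarapl1 (0.76) and Klhdc2 (0.76), Slc6a11 to Sanbr (0.73) and Nsd2 (0.70), and Abat to Sccpdh (0.86), Nrip2 (0.83) and Stmn1 (0.83).

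Marker lists moved with these deviations too. The median of 8 general neuron markers had r of 0.66 with Gabbr1 and 0.72 with Gabbr2, against 0.10 with Gad1 and 0.01 with Slc32a1. The median of 8 striatal markers had r of 0.70 with Slc32a1 and 0.38 with Gad1, against -0.05 with Gabbr1. Midbrain dopamine markers had r of -0.59 with Gabbr1 and -0.51 with Gabbr2. Slc6a11 had its highest r with the list of other GABA transport and metabolism genes (0.55), then with astrocyte markers (0.44), and its lowest with anterior pituitary markers (-0.64). Its signal was below the 20th percentile on 6 of 6 Intact-named and 5 of 6 OVX arrays, which limits these values and its nearest genes above. Array 2541 had the lowest Slc6a11 signal (7.42) and the highest pituitary median (10.49) of the OVX/ADX set. The part of regional or cell type content in the pairs was not tested.

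The stretches before the start sites of the paired genes are shown because their leading probe sets moved together. RefSeq (GRCr8) gave a window of 250 bases before a start site for 6 of the 7 genes, with none used here for Abat. Only bases outside the annotated span of the gene are printed, 5′ to 3′ on the strand of the gene. For Gad1 and Gabbr1 the window reached into that span, so only 58 and 134 of its 250 bases are printed. Capitals mark GGGCGG (the GC box), TATAAA (the TATA box), TGACG (the half-site of a cyclic AMP response element) and GGTCA (the half-site of an estrogen response element), read on both strands. The stretches lie at chr3:75777202-75777259 (plus strand) for Gad1, chr3:167686995-167687244 (plus) for Slc32a1, chr20:1499353-1499486 (minus) for Gabbr1 and chr5:66083696-66083945 (minus) for Gabbr2.
Gad1: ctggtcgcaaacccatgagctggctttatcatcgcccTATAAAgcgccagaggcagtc
Slc32a1: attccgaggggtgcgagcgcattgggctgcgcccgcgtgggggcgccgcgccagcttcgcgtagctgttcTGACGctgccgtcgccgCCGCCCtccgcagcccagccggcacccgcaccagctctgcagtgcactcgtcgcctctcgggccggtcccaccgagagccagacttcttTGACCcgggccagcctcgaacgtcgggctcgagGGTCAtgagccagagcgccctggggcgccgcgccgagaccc
Gabbr1: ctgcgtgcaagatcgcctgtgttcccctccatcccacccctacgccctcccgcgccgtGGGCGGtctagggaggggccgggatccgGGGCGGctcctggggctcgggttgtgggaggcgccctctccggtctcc
Gabbr2: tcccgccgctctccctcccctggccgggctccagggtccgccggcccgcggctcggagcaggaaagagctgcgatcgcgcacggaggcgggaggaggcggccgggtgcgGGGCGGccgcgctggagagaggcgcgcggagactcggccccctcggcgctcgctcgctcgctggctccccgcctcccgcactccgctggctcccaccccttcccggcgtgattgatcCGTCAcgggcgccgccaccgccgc

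Over the whole 250 bases, the windows were rich in G and C, with 68.4% for Gad1, 73.6% for Slc32a1, 75.6% for Gabbr1 and 78.8% for Gabbr2, against a median of 51.2% over 33465 windows. Gabbr1 had 4 GC boxes and the other 3 genes 1 each, a motif found in 30.5% of all windows. GGTCA occurred 2 times before Slc32a1 and 2 times before Slc6a11 and not in the other 4 windows, against 35.4% of all windows with a match. TGACG was found before Slc32a1 and Gabbr2 (18.2% of all windows) and TATAAA before Gad1 alone (12.9%). The full estrogen response element GGTCANNNTGACC was in none of the 6 windows and in 0.0239% of all, and the full TGACGTCA was in none of the 6 and in 1.59% of all. The full elements contain their half-sites. Of the 4 GC boxes of Gabbr1, 2 lie in the printed stretch, and the others, like that of Gad1, lie within the annotated span of the gene. A match is a description of letters only.

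The first question of the design was whether paced mating changed these genes in intact rats. No member probe set passed an adjusted p of 0.05 (limma). On number-named arrays, 2 of 15 had an unadjusted p under 0.05, both higher with the paced mated label (Gabbr1, 1369371_a_at, at 0.22 ± 0.09 and Gabbr2, 1368952_at, at 0.28 ± 0.11), against 9.33% of all probe sets. After adjustment 0.0444% of all probe sets passed. On Intact-named arrays, 2 of 15 had an unadjusted p under 0.05, 1 higher and 1 lower, against 8% of all, and 0.0148% of all passed after adjustment. With both sets in the fit, 3 of 15 had an unadjusted p under 0.05, all higher, against 7.72% of all, while 0% of all passed after adjustment, and the smallest adjusted p of a member was 0.61. The median mating difference of the 15 was 0.04, against 0.01 over all probe sets.

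The highest-ranked of these was a Gabbr1 probe set (1375720_at). Its signals on number-named arrays were 11.54, 11.55 and 11.60 with the paced mated label and 11.32, 11.47 and 11.51 with the chamber-exposed label. On Intact-named arrays they were 12.32, 12.38 and 12.47 on paced mated and 12.16, 12.19 and 12.23 on chamber-exposed arrays. Every array labelled paced mated was above every chamber-exposed array of its set. Of all probe sets, 15.4% did not overlap on number-named and 13.9% on Intact-named arrays. The share without overlap in both sets was not counted. The difference was 0.16 ± 0.05 (SE; limma, unadjusted p = 0.0062, adjusted p = 0.61). The exact permutation p within sets was 0.005, which is the smallest that 400 relabelings allow and is 1 of 105 such tests. It follows from the same order of the arrays and adds no further support. The other Gabbr1 probe sets, the leading one included, had unadjusted p above 0.05 in this comparison. In OVX/ADX rats the same probe set differed by -0.05 ± 0.06 and in OVX rats by 0.06 ± 0.09.

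Slc32a1 was higher on all 3 paced mated than on all 3 chamber-exposed Intact-named arrays. Its signals were 9.63, 9.65 and 9.76 on paced mated arrays and 8.99, 9.35 and 9.57 on chamber-exposed arrays. The difference was 0.37 ± 0.15 there (limma, adjusted p = 0.61) and 0.05 ± 0.06 on number-named arrays. Without chamber-exposed array Intact-4, which was the lowest, the Intact-named difference was 0.22. Over both sets it was 0.21 ± 0.09 (limma, adjusted p = 0.64; exact permutation p = 0.025). Gad1 (1368344_at) gave 0.12 ± 0.06 over both sets (limma, adjusted p = 0.64; exact permutation p = 0.05). On Intact-named arrays the striatal markers, whose median had the highest r of all lists with Slc32a1, differed by a median of 0.56 over 8 genes, all 8 higher and none past the threshold, and their part was not tested.

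Groups that did not overlap were counted for each set. In the number-named set 1 of 15 probe sets did not overlap, against 15.4% of all probe sets. In the Intact-named set 4 of 15 did not overlap, against 13.9% of all. These were Slc32a1, Gabbr1 (1375720_at) and Abat (1369799_at), higher with the paced mated label, and Abat (1391365_at), lower. The Abat probe sets thus went in opposite directions, by 0.19 ± 0.10 and -0.28 ± 0.11. On number-named arrays the pituitary markers separated the mating labels completely, and 9 of 9 were lower with the paced mated label, by a median of 2.19 and with 1 past the threshold. Their part in the member differences of this set was not tested.

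In OVX rats no member was called, and none of the 15 had an unadjusted p under 0.05, against 2.42% of all probe sets and 0% after adjustment. Abat (1369799_at) was the single probe set of 15 without overlap, with 8.40, 8.44 and 8.54 on paced mated and 8.03, 8.32 and 8.38 on chamber-exposed arrays, against 6.29% of all probe sets. Its difference was 0.22 ± 0.11 (limma, unadjusted p = 0.086, adjusted p = 1). In OVX/ADX rats again none of the 15 had an unadjusted p under 0.05, against 2.47% of all and 0% after adjustment, and all 15 overlapped, against 6.78% of all probe sets without overlap. On array 2541 the leading Slc6a11 signal was the lowest of the OVX/ADX set (7.42, against 7.88 to 8.03 on the others), beside the pituitary markers given above, whose part was not tested. Differences ran from -0.22 to 0.28 in OVX/ADX and from -0.25 to 0.27 in OVX rats. The 95% intervals reached 0.13 to 0.43 to either side in OVX/ADX and 0.20 to 0.515 in OVX rats.

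**Figure D4:**
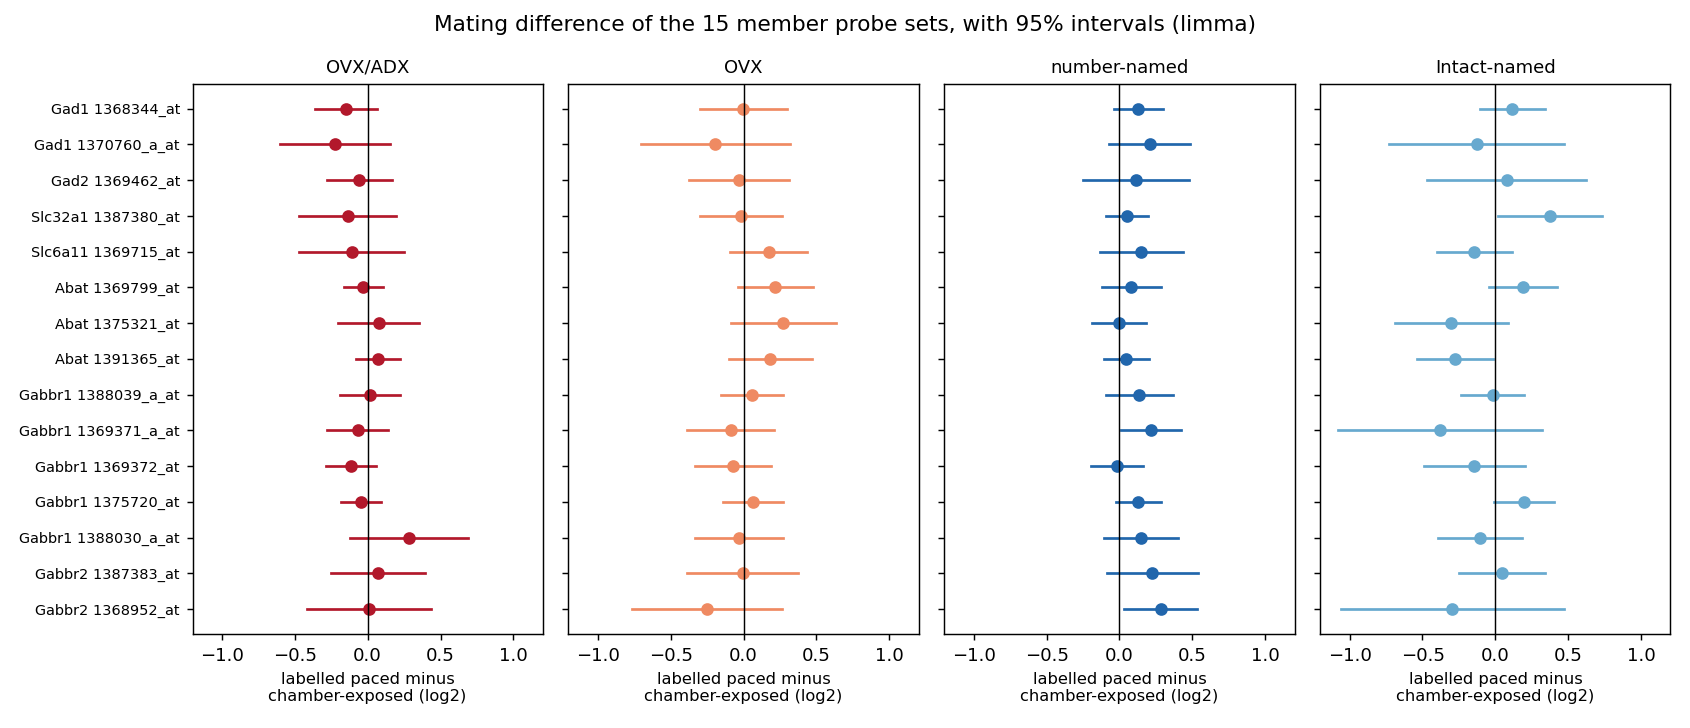
Log2 signal of paced mated minus chamber-exposed arrays, by label (x axis), for the 15 member probe sets (rows), with 95% intervals from limma as lines, in 4 title sets of 3 against 3 arrays. The points lie between -0.38 and 0.37, and no probe set passed an adjusted p of 0.05.

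Over the 24 arrays, 2 of 15 probe sets had an unadjusted p under 0.05, both higher with the paced mated label, against 4.19% of all probe sets and 0% after adjustment. Abat (1369799_at) differed by 0.11 ± 0.05 (limma, adjusted p = 0.97; exact permutation p = 0.017) and was higher in mean on paced mated arrays of 3 sets, with -0.03 ± 0.06 in OVX/ADX rats. Gabbr1 (1375720_at) differed by 0.09 ± 0.04 (limma, adjusted p = 0.97; exact permutation p = 0.019). The other Abat probe sets did not share this difference on Intact-named arrays.

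A further question was whether gland removal, followed by estradiol benzoate priming, changed the mating effect. For OVX minus Intact-named, 2 of 15 had an unadjusted p under 0.05, both Abat probe sets of low signal, against 4.96% of all probe sets and 0.0074% after adjustment. The difference of mating effects was 0.46 ± 0.17 for 1391365_at and 0.58 ± 0.24 for 1375321_at (limma, adjusted p = 0.93 and 0.99). For number-named minus Intact-named, both of intact rats, 1 of 15 had an unadjusted p under 0.05, against 10.6% of all and 0.0814% after adjustment, and this was Abat (1391365_at) at 0.32 ± 0.13 (limma, adjusted p = 0.38). For OVX/ADX minus OVX, 0 of 15 had an unadjusted p under 0.05, against 3.05% of all and 0% after adjustment. No difference in mating effect between sets was therefore shown for a member.

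Removal of the ovaries was compared between the sets that appear to share a run, where OVX and Intact-named arrays also differ in the prefix of their titles. The OVX rats were also primed with estradiol benzoate, while the Intact-named rats were in proestrus. Ovary removal and priming cannot be told apart in this comparison. No member passed an adjusted p of 0.05, against 1.44% of all probe sets, and 3 of 15 had an unadjusted p under 0.05, all higher in OVX, against 21% of all. The 1.44% came to 388 probe sets, and to 0 without OVX-4. Slc6a11 was 5.24, 4.91 and 5.01 on paced mated and 4.97, 4.93 and 4.75 on chamber-exposed OVX arrays, against 4.49, 4.66 and 4.75 on paced mated and 4.64, 4.84 and 4.86 on chamber-exposed Intact-named arrays. These are low signals, below the 20th percentile on 6 of 6 Intact-named and 5 of 6 OVX arrays, and the sets overlapped. The difference was 0.26 ± 0.09 (limma, adjusted p = 0.13; exact permutation p within mating labels = 0.02). Gabbr1 (1369371_a_at) differed by 0.44 ± 0.18 and Abat (1391365_at) by 0.23 ± 0.10 (limma, adjusted p = 0.19 and 0.23), beside a median 3′ minus 5′ control difference of 1.96 on OVX and 2.65 on Intact-named arrays for beta-actin, 0.45 and 0.90 for GAPDH and 2.25 and 2.14 for hexokinase, with overlapping ranges in each.

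Thalamic markers were higher in OVX than on Intact-named arrays for 7 of 7 genes, by a median of 0.95 and with 2 past the threshold, one of them Slc17a6, a vesicular glutamate transporter, at 1.69 ± 0.35 (limma, adjusted p = 0.039). Their part in the values of the members was not tested. Slc6a11 had r of 0.32 with the median of this list over the set-centred arrays. The leading Abat probe set (1369799_at) had 0.62, its highest among the lists, and differed by 0.06 ± 0.07 for OVX minus Intact-named. Abat (1391365_at), given above for this comparison, had r of -0.09 with the leading one.

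Other genes of the GABA system were counted in the same fits. In the 6 mating comparisons, where 0% to 0.0444% of all probe sets were called, none of 10 other genes of GABA transport and metabolism, 13 of GABA-B effectors and auxiliary subunits, 12 of GABA-A receptor subunits, 13 markers of GABA neurons and 9 factors of midbrain and hindbrain GABA neurons passed the threshold. For OVX minus Intact-named, Slc38a5, a glutamine transporter, was the only gene of these lists to pass, at 0.35 ± 0.08 (limma, adjusted p = 0.049), against 1.44% of all probe sets. Without OVX-4, 0 of all probe sets passed in this comparison.

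Across runs these genes shifted in both directions. For number-named minus Intact-named, GABA-B effectors gave 5 higher and 8 lower of 13, with Gnai1, an inhibitory G protein subunit, at 2.08 ± 0.21 and Kcnj6, a potassium channel opened by GABA-B receptors, at -1.28 ± 0.10. GABA-A subunits gave 8 higher and 3 lower of 12, led by Gabrg1 at 2.999 ± 0.08. GABA neuron markers gave 4 higher and 8 lower of 13, with the calcium-binding protein gene Calb2 at 2.97 ± 0.14 and the peptide genes Cck at -1.51 ± 0.10 and Npy at -1.29 ± 0.11. The background for these counts is the 80.6% given above.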

How the data were processed

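The authors deposited log2 signals of 24 Affymetrix rat arrays. According to the submitters' processing notes they were made by RMA in Affymetrix Expression Console 1.4, while the study's methods name GCRMA. The lowest signals fall into 3 ranges, taken here as 3 normalization runs, which no source states. RMA evens out arrays within a run, so levels of separate ranges were compared only after quantile normalization of the 24 arrays, or as percentiles within an array.

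Of 31099 probe sets, 57 were controls, and 27035 that reached the 20th percentile on at least 3 arrays were kept. One gene symbol was carried by 20832 probe sets, several by 436 and none by 9831. Each comparison was fitted on its own arrays with limma 3.58.1 in R 4.3.3, with the set or mating label as a further term where arrays of several sets or both labels entered, and p-values were adjusted over the 27035 by Benjamini-Hochberg (threshold 0.05). Members were also tested by exact permutation within sets, two-sided, where 3 against 3 arrays cannot go below 0.1. The fits were tested on simulated data. No arrays held identical values.

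All member probe sets were described. The leading probe set of a gene had the highest mean signal over 24 arrays. For each member the 5 genes most like it were listed, and for other lists counts and up to 4 called genes. Members and lists were chosen with earlier results of these data known. Of 189 list genes, 159 had a kept probe set. Alternatives covered the filter, the normalization, eBayes options, a plain test, array weights, an 8-group fit and leaving out arrays.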

Additional observations from a re-analysis of the deposited data

Results flagged for a closer look

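In the title sets of 6 arrays, 1 array stood far from the others for 3 of 60 combinations of member probe set and set, where chance gives about 1 in 20. The measure is the gap to the nearest array divided by the range of the set, set against Dixon's 95% critical value. Slc6a11 was lowest on OVX/ADX array 2541, at 7.42 against 7.88 on the nearest array (0.7511). Gad2 was highest on number-named array 2538, at 9.85 against 9.42 (0.6768), and Slc6a11 was highest on the same array, at 8.95 against 8.60 (0.6562). The pituitary markers had a median of 10.49 on array 2541 and of 6.36 on array 2538, the highest of the OVX/ADX set and the lowest of the number-named set, and their part was not tested.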

How the results depend on the processing

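Of 255 recounts of called members under other settings, 249 stayed within 1.5 times the count and 6 did not. For OVX minus Intact-named, one fit over the 8 groups called 1 member (Abat, 1391365_at, adjusted p = 0.035) in place of 0. Over all probe sets, that fit called 2876, in place of 388 of 27035. For the mating difference of number-named minus Intact-named, array weights called 2 (Gabbr1, 1369371_a_at, and Abat, 1391365_at). Leaving out 1 array called 0 to 1, with Gabbr2 (1368952_at) called without Intact-5. Over all probe sets, array weights called 2316 and the fit without Intact-5 called 346, in place of 22 of 27035. Intact-5 had the lowest 3′ minus 5′ difference of its set for beta-actin (1.84), with Intact-6 at 1.85. Probe sets 1369371_a_at and 1368952_at are among those given above beside this control, whose part was not tested. For OVX/ADX minus number-named, the 50th percentile filter called 2 of the 12 members left and signals as deposited 13. Leaving out 1 array called 5 to 8, with 8 without array 2541. Over all probe sets, the filter called 11099, signals as deposited 22851 and the fit without array 2541 called 17965, in place of 17869. Slc32a1 in OVX/ADX minus OVX turned to -0.24 with signals as deposited and -0.11 with array medians subtracted. Another probe set in place of the leading one turned the direction for Gad1 (3.78 in number-named minus Intact-named, 3.87 in OVX/ADX minus OVX), Abat (-0.30 and -0.28 for mating in Intact-named rats, -0.15 and -0.12 in intact rats, -0.87 and -0.65 in number-named minus Intact-named, -0.0512 in OVX/ADX minus OVX), Gabbr1 (2.10, 0.16 and 1.80, then 1.72, 0.52 and 1.89) and Gabbr2 (1.41, then 1.49), the cause of which was not tested. Of single differences, 965 kept their direction and side of the threshold, 12 passed it anew, 2 no longer passed and 19 turned.

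Counts over all probe sets moved more. They ran from 0 to 112 for mating in number-named rats (12 as reported), 0 to 1016 in Intact-named rats (4), 0 to 16 in intact rats (0), 84 to 2876 for OVX minus Intact-named (388), 1 to 12 and 4 to 2316 for its mating difference and that of number-named minus Intact-named (2 and 22), and 11099 to 22851 for OVX/ADX minus number-named (17869). Leaving out 1 array gave 2 to 58, 1 to 15, 0 to 1, 0 to 443, 1 to 9, 9 to 346 and 16931 to 17965 in that order. Title numbers 1 to 6 are shared by OVX and Intact-named arrays, but with the number as a replicate block 0 members and 375 probe sets were called, and the residuals of same-numbered arrays correlated by 0.02 to 0.31, with 1 of 6 best with its own number, so the numbers were not taken as pairs. The number of arrays and low signals, as for Abat 1375321_at, limit the precision.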
